A study of Homo sapiens with 6 samples.

Results

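The core of Polycomb repressive complex 2 (PRC2) is encoded by 6 genes, EZH2, EZH1, EED, SUZ12, RBBP4 and RBBP7, and their transcripts were followed through 5 conditions of C4-2 cells. The genes were taken by name as the catalytic and core subunits of the complex, all 6 were found, and they are 6 of the 12926 genes compared, from a table of 28503 names. C4-2 is a prostate cancer cell line that descends from LNCaP, and it was used at passages 10 to 15. Polyadenylated RNA was sequenced after GSK126, a small molecule that inhibits the methyltransferase activity of EZH2, after astemizole, an antihistamine known to interfere with the EZH2 and EED interaction, and after vehicle, and also after lentivirus with 1 of 2 EZH2 shRNAs and after lentivirus with a scramble shRNA. All groups were the same line in serum-containing medium, and doses and treatment times were not used here. The labels list 6 libraries, 1 per treatment and 1 per hairpin, and the table has 5 value columns, of which 1 stands for the knockdown. No source used here says how 2 hairpins became 1 column.

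PRC2 places methyl groups on lysine 27 of histone H3, a mark of silenced genes. EZH2 and its paralogue EZH1 are alternative catalytic subunits, EED binds the mark and stimulates the enzyme, SUZ12 is the scaffold on which the complex is built, and RBBP4 and RBBP7 are alternative histone-binding subunits that also serve in other chromatin complexes. EZH2 is abundant in dividing cells and under control of the pRB and E2F pathway, as is EED, while EZH1 is also expressed in cells that do not divide. In prostate cancer EZH2 is known for high levels in advanced disease.

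The promoter letters are shown for EZH2 and SUZ12, which were at least 2-fold lower in the knockdown column, and for EZH1, which was higher there. EZH2 is the target of the hairpins, and RBBP7, at least 2-fold lower with astemizole, is not shown. A link between the letters and the values was not tested. Each run is the 250 bases before the RefSeq start, read 5′ to 3′ on the gene's strand, from the RefSeq promoter table for GRCh38.p14, a later build than the authors' hg19. Capitals mark the CCAAT box (CCAAT, either strand) and 4 E2F-like words (TTTCCCGC, TTTGGCGC, TTTCGCGC or TTTGCCGC, either strand).

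EZH2, chr7:148884292-148884541, minus strand: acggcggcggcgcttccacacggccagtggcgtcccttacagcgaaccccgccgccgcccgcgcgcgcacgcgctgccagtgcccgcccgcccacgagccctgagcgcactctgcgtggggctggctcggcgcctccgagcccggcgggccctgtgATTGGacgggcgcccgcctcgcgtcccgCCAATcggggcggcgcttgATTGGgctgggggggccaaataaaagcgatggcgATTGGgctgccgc

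EZH2 across its start, chr7:148884272-148884301, minus strand: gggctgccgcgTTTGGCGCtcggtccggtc

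SUZ12, chr17:31936757-31937006, plus strand: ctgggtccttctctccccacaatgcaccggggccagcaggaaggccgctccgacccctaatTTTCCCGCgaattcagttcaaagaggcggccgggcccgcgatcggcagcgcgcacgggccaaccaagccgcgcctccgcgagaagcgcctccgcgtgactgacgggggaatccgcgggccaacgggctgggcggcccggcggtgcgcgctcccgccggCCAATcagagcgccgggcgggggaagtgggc

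EZH1, chr17:42745041-42745290, minus strand: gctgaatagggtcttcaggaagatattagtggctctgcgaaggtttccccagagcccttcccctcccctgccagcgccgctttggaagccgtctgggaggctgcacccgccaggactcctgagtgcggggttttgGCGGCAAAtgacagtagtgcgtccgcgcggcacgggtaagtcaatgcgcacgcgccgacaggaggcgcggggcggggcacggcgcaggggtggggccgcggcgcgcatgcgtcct

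All 6 members had a window of 300 bases in that table, 250 before and 50 after the start, and 3 of them had a second start. The first EZH2 window held 4 CCAAT boxes, beginning 94, 66, 47 and 13 bases before the start, a number reached by 0.991% of all 35116 windows. Its E2F-like word began at the second transcribed base, and the window at the other EZH2 start held neither motif. SUZ12 had 1 E2F-like word, 189 bases before the start, and 1 CCAAT box 31 bases before it. EZH1 had 1 E2F-like word, on the other strand and 115 bases before the start, and no CCAAT box. An E2F-like word stood in 3.31% of all windows and a CCAAT box in 34.6%. The letters of the CHR element (TTTGAA, either strand, in 15.2% of windows) were found in the SUZ12 window, 173 bases before its start, and in no other member's window. EED, RBBP4 and RBBP7 had CCAAT boxes and none of the 4 E2F-like words in any of their windows. These are matches of letters, and no binding was measured.

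The unit is FPKM, a fragment count divided by transcript length and library size, so levels may be compared between genes. With 1 value per condition no difference has a replicate check and no p-value is given. Comparisons are log2 ratios of FPKM + 1, and a gene at 2-fold or more on that scale is counted. The scale understates the differences of low genes. With 0.1 FPKM added in place of 1 FPKM, the knockdown log2 ratio of EZH2 was -2.84 in place of -2.55. That of EZH1 was 1.08 in place of 0.89. The distance between the scramble and vehicle columns is given beside the members, and beside most other genes named, as the difference between 2 controls. Lower FPKM in a culture cannot be told apart between fewer cells with the transcript and less of it per cell.

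Sums of FPKM were between 661933 and 796603 over the 5 columns. Absolute depth is unknown. Steps between low values put the FPKM of a single read, relative to vehicle, at 0.949 with GSK126, at 1.05 with astemizole and at 0.858 for the scramble column. All 10 prostate luminal markers were at 1 FPKM or more in every column, with summed levels between 3519 and 6049 FPKM. Basal cell markers summed to at most 7.82 FPKM and fibroblast markers to at most 3.28 FPKM in any column. Blood markers summed to 8.07 FPKM with GSK126, of which LYZ, the lysozyme gene, made up 7.57 FPKM, against 1.16 FPKM with vehicle, and to between 0.122 and 0.546 FPKM in the other 3 columns. The GSK126 column stood apart most by liver genes: 19 of 19 liver markers were highest there, with a sum of 215 FPKM against 24.6 with vehicle, and sums between 2.36 and 6.22 in the other 3 columns. Of these markers 0 were listed at 0 with GSK126, 1 with vehicle and 11 with scramble shRNA. With vehicle, 16 of 19 liver markers were higher than in the astemizole, knockdown and scramble columns. The part of the liver and blood markers in the GSK126 and vehicle values, and in ratios to vehicle, was not tested.

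**Figure D1:**
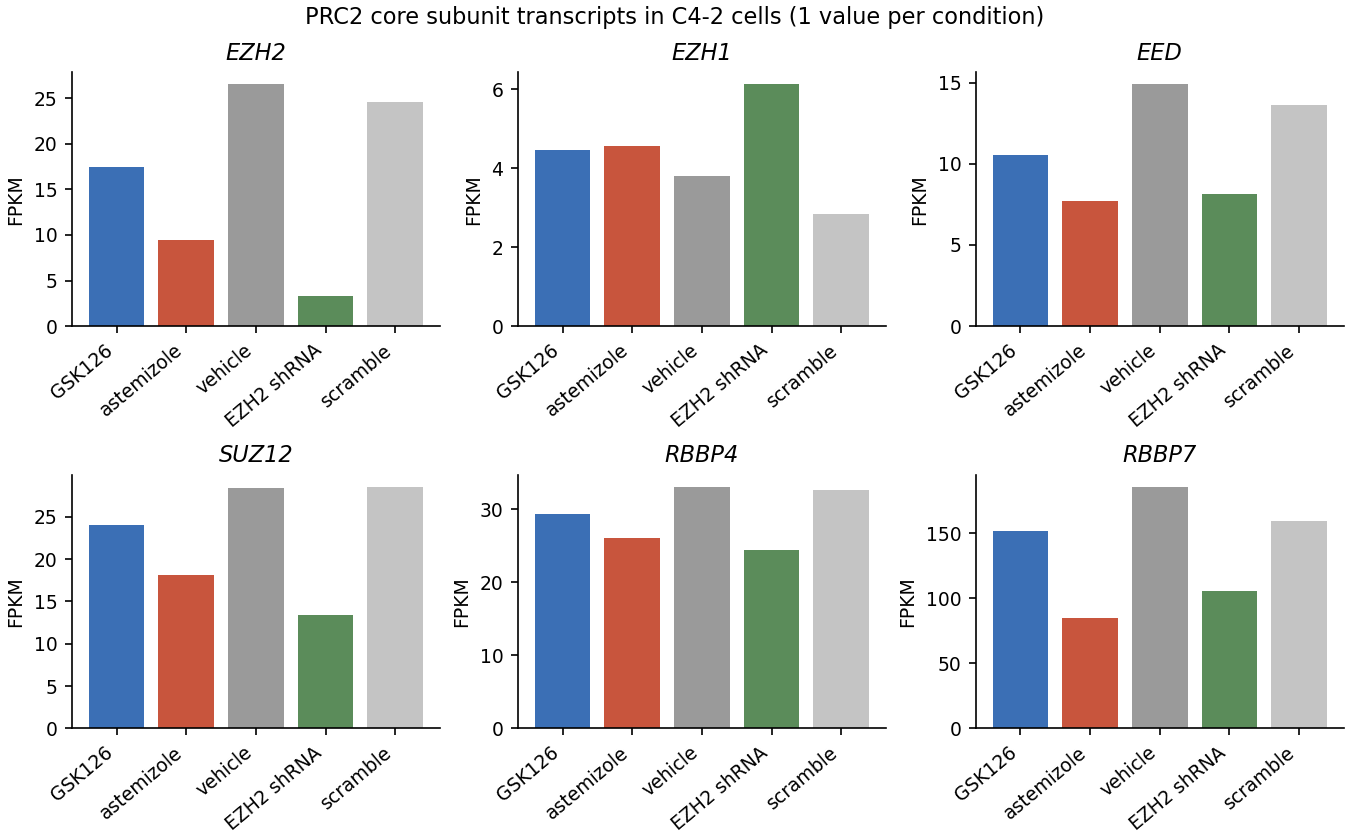
Bars show FPKM (vertical axes from 0, scaled per gene) of the 6 PRC2 core genes with GSK126, astemizole, vehicle, EZH2 shRNA and scramble shRNA, 1 value each. EZH2 is lowest with EZH2 shRNA at 3.35 FPKM, EZH1 is highest there at 6.12 FPKM, and RBBP4 varies least, between 24.4 and 33.1 FPKM.

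EZH2, the targeted gene, was lower in all 3 treated columns. It stood at 17.5 FPKM with GSK126 and 9.48 FPKM with astemizole, against 26.5 FPKM with vehicle, and at 3.35 FPKM in the knockdown column, against 24.6 FPKM with scramble shRNA. The level left in the knockdown column was 13.7% of the scramble level, that with astemizole 35.7% of vehicle and that with GSK126 65.9% of vehicle. The log2 ratios of FPKM + 1 were -2.55, -1.39 and -0.58 in that order, and the scramble column differed from vehicle by -0.11. In the knockdown comparison 0.921% of genes had a log2 ratio as low or lower, with astemizole 2.81% and with GSK126 6.72%. EZH2 is the direct target of the hairpins, and the astemizole and GSK126 comparisons share the vehicle column.

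EZH1, the second methyltransferase, went the other way. It was at 4.46 FPKM with GSK126 and 4.56 FPKM with astemizole, against 3.81 FPKM with vehicle, and at 6.12 FPKM in the knockdown column, against 2.85 FPKM with scramble shRNA. The knockdown log2 ratio was 0.89, a level 215% of scramble, and 2.75% of genes had a ratio as high or higher. With GSK126 and astemizole the log2 ratios were 0.19 and 0.21, each smaller than the difference between the 2 controls, which was -0.32. The scramble column held the lowest EZH1 value of the 5. With the other control in its place, the EZH1 ratio was 0.50 with GSK126, 0.53 with astemizole and 0.57 with knockdown. With a pseudocount of 0.1 FPKM the knockdown ratio was 1.08, past 2-fold.

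EZH2 stood above EZH1 in 4 of the 5 columns and below it in the knockdown column. EZH2 was 0.547 times EZH1 there, against 8.61 times with scramble shRNA. It was 3.91 times EZH1 with GSK126 and 2.08 times with astemizole, against 6.97 times with vehicle. As a share of the sum of both genes, EZH2 made up 35.4% in the knockdown column and 89.6% with scramble shRNA, and 79.7% with GSK126, 67.5% with astemizole and 87.5% with vehicle. A ratio within a column does not depend on how that column was scaled. The summed EZH1 and EZH2 level was 9.48 FPKM in the knockdown column against 27.4 FPKM with scramble shRNA, lower although EZH1 was higher. With GSK126 and astemizole the sums were 21.9 and 14.0 FPKM, against 30.3 FPKM with vehicle.

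**Figure D2:**
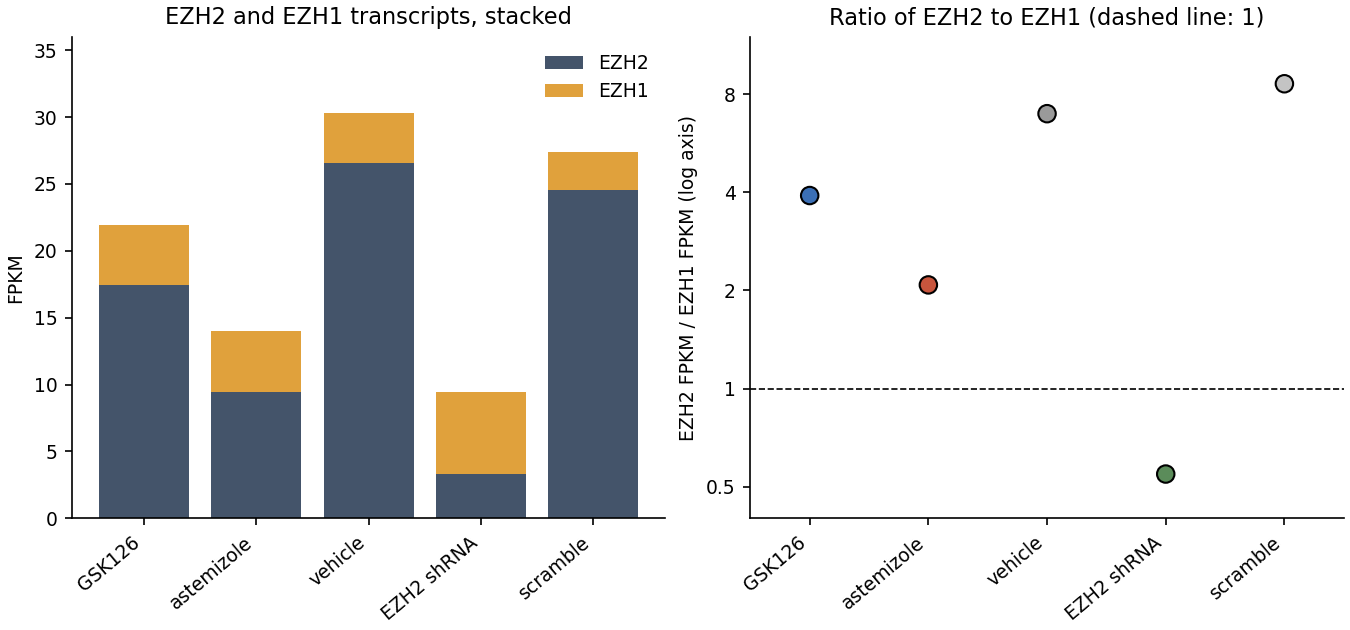
Left, stacked bars of EZH2 and EZH1 FPKM in each of the 5 columns; right, the EZH2 to EZH1 ratio on a log axis, 1 point per column, with the dashed line at 1. The knockdown point, at 0.547, is the one below the line, and the 2 control points, at 6.97 and 8.61, are the highest.

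EED, which couples the enzyme to the histone mark, was lower in each treated column. It was at 10.6 FPKM with GSK126 and 7.71 FPKM with astemizole, against 14.9 FPKM with vehicle, and at 8.16 FPKM in the knockdown column, against 13.6 FPKM with scramble shRNA. The log2 ratios were -0.46 with GSK126, -0.87 with astemizole and -0.67 with knockdown, and the 2 controls differed by -0.12. EED and RBBP7 had their lowest values with astemizole, while EZH2, SUZ12 and RBBP4 had theirs in the knockdown column. Ratios as low or lower were held by 11.3%, 7.43% and 9.72% of genes.

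SUZ12, the scaffold subunit, was at 24.0 FPKM with GSK126 and 18.1 FPKM with astemizole, against 28.4 FPKM with vehicle. In the knockdown column it was at 13.4 FPKM, against 28.6 FPKM with scramble shRNA. The log2 ratios were -0.23, -0.62 and -1.04, and the controls differed by 0.01. The knockdown value was 46.9% of scramble, and 4.70% of genes had a ratio as low or lower. A partial copy of the gene, SUZ12P1, is a row of its own, and the sources used here do not say how reads were divided between the 2. SUZ12P1 was at 4.45 FPKM with GSK126 and 5.09 FPKM with astemizole, against 7.39 FPKM with vehicle, and at 4.18 FPKM in the knockdown column, against 6.80 FPKM with scramble shRNA. It was between 18.5% and 31.3% of the SUZ12 level, so SUZ12 values carry that uncertainty, but both rows were lower in each treated column than in its control.

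Relative to the scaffold transcript the other subunits differed. EZH2 was 0.728 times SUZ12 with GSK126 and 0.523 times with astemizole, against 0.935 times with vehicle, and 0.250 times in the knockdown column, against 0.860 times with scramble shRNA. EED was 0.440 and 0.426 times SUZ12 with GSK126 and astemizole, against 0.525 times with vehicle. In the knockdown column EED was 0.610 times SUZ12, against 0.476 times with scramble shRNA. The EED to SUZ12 ratio was thus below its control with both compounds and above it in the knockdown column, and no replicate shows how far such ratios vary between cultures.

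RBBP4 and RBBP7 encode closely related WD-repeat proteins that hold histones. RBBP7 was the most abundant core transcript in each of the 5 columns, at 152 FPKM with GSK126 and 84.6 FPKM with astemizole, against 186 FPKM with vehicle, and at 105 FPKM in the knockdown column, against 160 FPKM with scramble shRNA. Its log2 ratios were -0.29, -1.12 and -0.59, and the controls differed by -0.22. With scramble shRNA as the control the astemizole ratio was -0.91, short of 2-fold. RBBP4 was at 29.4 FPKM with GSK126 and 26.1 FPKM with astemizole, against 33.1 FPKM with vehicle, and at 24.4 FPKM in the knockdown column, against 32.6 FPKM with scramble shRNA. RBBP4 had the narrowest range of the 6 genes, a highest value 1.36 times the lowest, and 76.7% of all genes compared ranged at least as widely. Its log2 ratios were -0.17, -0.33 and -0.41, and the controls differed by -0.02; the GSK126 ratio was 0.04 after TPM rescaling, so its direction there is not settled.

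RBBP7 was 5.16 times RBBP4 with GSK126 and 3.25 times with astemizole, against 5.61 times with vehicle, and 4.32 times in the knockdown column, against 4.89 times with scramble shRNA. The astemizole column thus held the lowest RBBP7 share of this pair. In GENCODE 29, on GRCh38, RBBP7 overlaps TXLNG and RBBP4 overlaps SYNC, each on the opposite strand. The sources used here do not say whether counting used strand. TXLNG had log2 ratios of -0.19, -0.43 and -0.67 and SYNC -0.32, -0.58 and -0.37 with GSK126, astemizole and knockdown, and the controls differed by 0.16 and -0.27. RBBP4 also has processed copies, none of which is a row of the table under that name.

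Within a column, the order of levels was RBBP7, RBBP4, SUZ12, EZH2, EED and EZH1 with GSK126, astemizole, vehicle and scramble shRNA alike. In the knockdown column the order was RBBP7, RBBP4, SUZ12, EED, EZH1 and EZH2. The neighbours SUZ12 and EZH2 stood close with vehicle, at 28.4 and 26.5 FPKM, and RBBP4 and SUZ12 at 33.1 and 28.4 FPKM, and no spread is at hand to say whether such neighbours differ. Over the 5 columns the highest value was 7.91 times the lowest for EZH2, 2.19 times for RBBP7, 2.15 times for EZH1, 2.13 times for SUZ12 and 1.93 times for EED. On the log2 scale, a range as wide as that of EZH2 was found in 1.67% of genes, and as wide as that of RBBP7 in 15.0%.

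GSK126 against vehicle addressed inhibition of the EZH2 enzyme. None of the 6 core genes was 2-fold lower or higher, where 0.952% of all genes were lower and 1.05% higher, or 123 and 136 genes. The members' median log2 ratio was -0.26, against -0.04 over all genes, with 5 of 6 below 0 as deposited. After TPM rescaling RBBP4 was at 0.04, SUZ12 at -0.03 and RBBP7 at -0.08. That rescaling put the all-gene median at 0.15. The split over all genes was then 285 higher and 70 lower (80.3% higher, against 52.5%), and EZH2 kept the lowest member ratio, at -0.37.

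Astemizole against vehicle addressed disruption of the pairing of EZH2 with EED. EZH2 and RBBP7 were at least 2-fold lower and no member was higher, 2 of 6, where 5.49% of all genes were lower and 3.53% higher. The members' median was -0.74, against -0.06 over all genes. EED, at -0.87, was the nearest to 2-fold among the others.

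The knockdown column against scramble shRNA addressed loss of EZH2 itself. EZH2 and SUZ12 were at least 2-fold lower and no member was higher, 2 of 6, where 5.11% of all genes were lower and 1.93% higher. EZH2 is the target of the hairpins, so its place in that count was set by the design, and SUZ12 was at -1.04. The members' median, with EZH2 included, was -0.63, against 0.03 over all genes. Between the 2 controls no member passed 2-fold; 0.851% of genes were lower and 0.170% higher with scramble shRNA than with vehicle, and the members lay between -0.32 and 0.01.

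**Figure D3:**
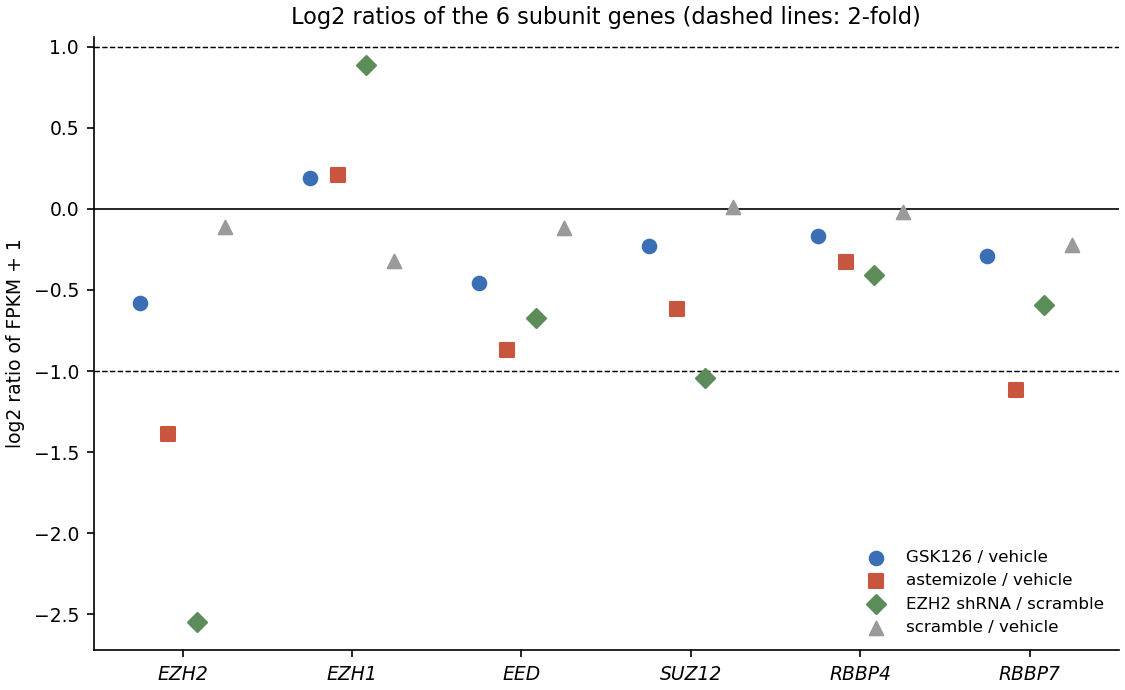
Points give the log2 ratio of FPKM + 1 for each of the 6 genes in GSK126 over vehicle, astemizole over vehicle, EZH2 shRNA over scramble shRNA, and scramble shRNA over vehicle; dashed lines mark 2-fold. On these values EZH1 alone lies above 0 in the 3 treated comparisons, at 0.19, 0.21 and 0.89 (after TPM rescaling RBBP4 was at 0.04 with GSK126), and the grey control points stay between -0.32 and 0.01.

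Genes of DNA replication and cell division were lower in each treated column than in its control. The list holds 21 genes, among them the polymerase clamp PCNA, the proliferation marker MKI67 and the mitotic kinase PLK1. Their summed level was 978 FPKM with GSK126 and 399 FPKM with astemizole, against 1908 FPKM with vehicle, and 213 FPKM in the knockdown column, against 1502 FPKM with scramble shRNA. All 21 were at least 2-fold lower with astemizole and in the knockdown column, and 5 with GSK126. Over all genes 5.49%, 5.11% and 0.952% were lower. The list medians of the log2 ratio were -2.44, -2.99 and -0.92 in that order. The 5 genes counted with GSK126 lay between -1.26 and -1.01. Set against scramble shRNA in place of vehicle, these 5 fell short of 2-fold. RRM2 was at 41.1 FPKM with GSK126 against 80.9 FPKM with scramble shRNA, and AURKB at 24.5 FPKM against 37.1 FPKM. The replicative helicase gene MCM6, at 14.6 FPKM with astemizole against 30.3 FPKM with vehicle, only just reached 2-fold. It did so by less than the shift that median centring brings to all genes. Between the 2 controls 0 of 21 were 2-fold lower, with a median of -0.27. The lowest between the controls was PLK1, just short of 2-fold, at 35.2 FPKM with GSK126 and 35.3 FPKM with scramble shRNA, against 71.3 FPKM with vehicle. CCNB1, the mitotic cyclin B1 gene, was at -0.87 with GSK126 and at -0.80 between the controls. MKI67, at -0.07 with GSK126, was the least low of them there, by less than the shift that TPM rescaling brings to all genes. EZH2 was less low than most of the list: 20 of 21 had a lower ratio than EZH2 with GSK126, 19 with astemizole and 14 with knockdown. EED, SUZ12, RBBP4 and RBBP7 were all above each list median. The part of proliferation in the members' values was not tested. CDKN1A, which encodes the cell cycle inhibitor p21, had log2 ratios of -0.43, 1.90 and 2.92, and of -1.03 between the controls, with 73.6 FPKM with GSK126, 374 FPKM with astemizole and 370 FPKM in the knockdown column, against 99.4 FPKM with vehicle and 48.0 FPKM with scramble shRNA.

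**Figure D4:**
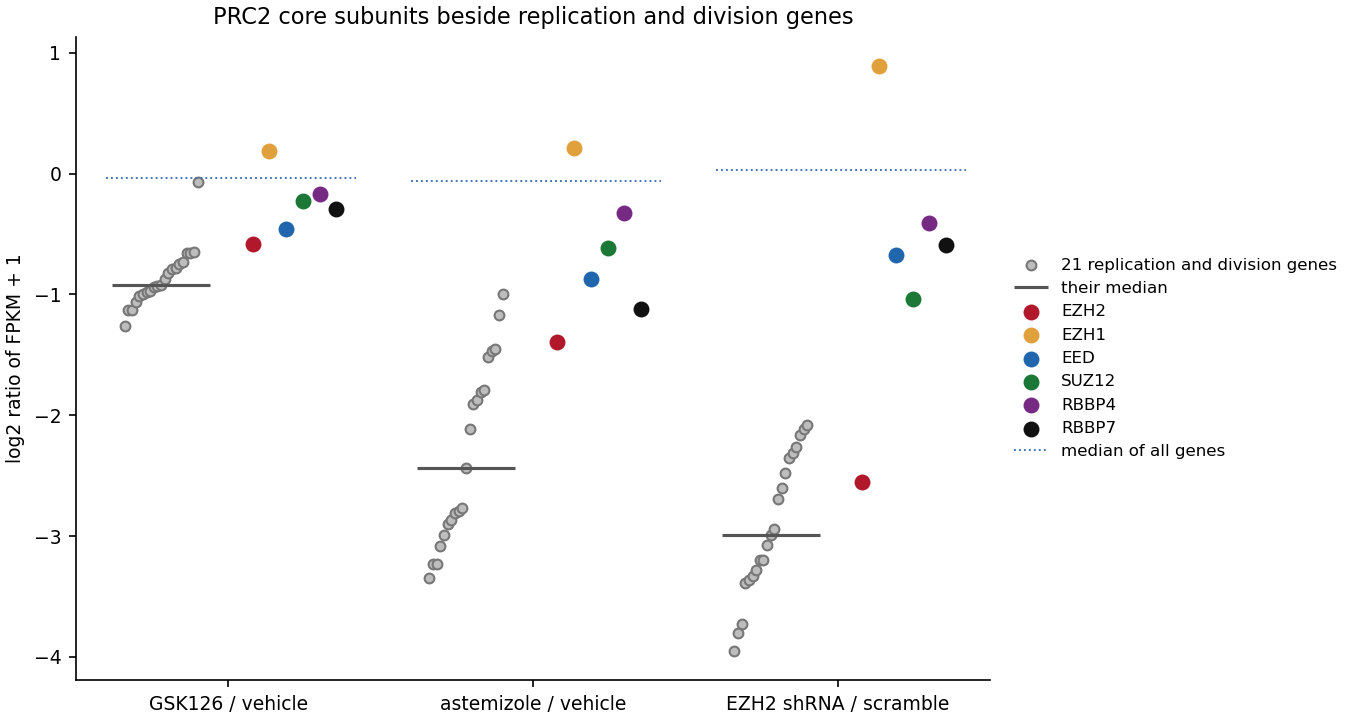
Log2 ratios of FPKM + 1 in the 3 comparisons, with grey points for 21 replication and division genes, a bar at their median, coloured points for the 6 PRC2 core genes and a dotted line at the median of all genes. EZH2 lies above the list medians of -0.92, -2.44 and -2.99, and EZH1 lies above 0 in each comparison.

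Of 13 E2F factors and their partners or pocket proteins, 1 was at least 2-fold lower with GSK126, 4 with astemizole and 5 with knockdown, where 0.952%, 5.49% and 5.11% of all genes were. None of the 13 was 2-fold higher. The medians were -0.28, -0.68 and -0.36, and between the controls 0 of 13 were 2-fold lower, with a median of -0.04. E2F1, an activator of replication genes, was at 20.2 FPKM with GSK126 and 12.6 FPKM with astemizole, against 43.5 FPKM with vehicle. In the knockdown column E2F1 was at 3.51 FPKM, against 40.2 FPKM with scramble shRNA. E2F7, a repressor that is itself made in S phase, had log2 ratios of -0.87, -1.75 and -1.98, and -0.07 between the controls.

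The list for PRC2 accessory subunits, which steer the core to its sites, had 8 of 10 names measured. Names are counted here, not distinct subunits, because a gene can stand on the list under more than 1 name. Their medians were -0.23 with GSK126, -0.26 with astemizole and 0.00 with knockdown, with 0, 1 and 2 of the 8 at least 2-fold lower and 0, 0 and 1 higher. Over all genes 0.952%, 5.49% and 5.11% were lower and 1.05%, 3.53% and 1.93% higher. Between the controls 0 of the 8 passed 2-fold, with a median of -0.07. PHF19, a Polycomb-like protein that binds H3K36 methylation, was at 0.998 FPKM in the knockdown column, against 3.75 FPKM with scramble shRNA and 6.43 FPKM with vehicle. JARID2, a DNA-binding partner of the complex, was at 14.9 FPKM in the knockdown column, against 6.43 FPKM with scramble shRNA, and the controls differed by 0.10 on the log2 scale.

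RBBP4 and RBBP7 are shared with other complexes, whose remaining subunits were set beside them. None of 11 NuRD genes, a remodelling and deacetylase complex, passed 2-fold in any of the 3 comparisons, with medians of -0.23, -0.33 and -0.08 for GSK126, astemizole and knockdown. The methyl-DNA-binding protein gene MBD3 was the lowest of these, at -0.60, -0.86 and -0.60, and at -0.66 between the controls. Of 9 SIN3 deacetylase genes, SAP30 alone passed 2-fold, in each comparison, with log2 ratios of -1.18, -2.57 and -1.76 and -0.63 between the controls; the list medians were -0.04, -0.23 and 0.06. The 5 histone chaperone and acetyltransferase genes had medians of -0.90, -1.24 and -1.76, with 1, 4 and 3 of them at least 2-fold lower and none higher, where 0.952%, 5.49% and 5.11% of all genes were lower. Between the controls 0 of 5 were 2-fold lower, with a median of -0.12 and HAT1, a histone acetyltransferase gene, lowest at -0.59. Among them ASF1B, a chaperone of newly made histones, had -1.05, -2.39 and -4.08, with 0.06 between the controls, and CHAF1B, a subunit of the chromatin assembly factor that contains RBBP4, had -0.90, -1.24 and -2.60, with -0.12 between the controls. Of 4 MuvB genes, which join RBBP4 in a complex that represses and activates cell cycle genes, LIN9 alone passed 2-fold, with -1.39 with astemizole and -1.35 with knockdown, and -0.11 between the controls.

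Likeness of pattern was measured over the 5 columns as the root mean square difference of log2(FPKM + 1) after centring each gene, among 8684 genes with a known symbol, 5 FPKM or more in at least 1 column and no 0. Nearest to EZH2 were the replicative helicase gene MCM2 at 0.154, CHAF1B at 0.155 and NRGN at 0.167. MCM2 stood at 44.1 FPKM with GSK126 and 25.5 FPKM with astemizole, against 75.0 FPKM with vehicle, and at 9.01 FPKM in the knockdown column, against 78.8 FPKM with scramble shRNA. Nearest to EZH1 were CLK4, LIPT1 and GPR157, at 0.050 to 0.052. Nearest to EED were the purine salvage enzyme gene HPRT1, UCK2 and EXOSC2, at 0.042 to 0.052, and to SUZ12 HES6, PRPS2 and CCDC117, at 0.042 to 0.049. RBBP4 was nearest to PEX26, TCHP and ATL2, at 0.030 to 0.033, and RBBP7 to LRRC26, NEDD1 and SNHG16, at 0.055 to 0.062. All these distances rest on 5 values from the same columns.

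Among the members themselves EED and RBBP7 were closest, at 0.139, followed by EED and SUZ12 at 0.178 and EED and RBBP4 at 0.189. EZH2 and EZH1 were farthest apart, at 1.252, and EZH2 lay 0.592 from SUZ12, its nearest member. Many genes outside the complex lay closer than that: SUZ12 ranked 408 among genes by distance from EZH2, and RBBP7 ranked 205 from EED. By distance from EED, SUZ12 ranked 480 and RBBP4 569. Distances were not scaled to each gene's range, so they also reflect the size of change.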

How the data were processed

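The deposited table gives FPKM, per the labels, which name that unit for the file. TopHat2, Cuffdiff and build hg19 are named without versions, per the submitters' processing notes; annotation, filters, strand use and the making of the knockdown column from 2 hairpin libraries are not stated in those sources. Of 28503 names, 27 turned into dates and 1693 short non-coding RNAs were left out, and 12926 genes whose highest column reached 1 FPKM were compared. Log2 ratios of FPKM + 1 were taken to the control the labels name and counted at 2-fold. The steps were tested on simulated data. With 1 value per condition there is no test. All 6 members passed the filter.

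Members and lists were chosen with earlier results of these data known. Named are the members, CDKN1A, up to 3 genes per list by absolute ratio, and 3 nearest genes per member; other list genes given as examples and the overlapping genes TXLNG and SYNC were added after their values were seen. A further gene of that rule is not reported here. Alternatives were a pseudocount of 0.1 FPKM, no filter, a filter of 5 FPKM, TPM rescaling, median centring, the other control column and, for patterns, the 3 ratios. The TPM rescaling used each column's sum over all names, those left out included. Python 3.11.15, pandas 2.3.3 and NumPy 2.4.6 were used.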

Additional observations from a re-analysis of the deposited data

How the results depend on the processing

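Of 108 member ratios under an alternative, 106 stayed on their side of 2-fold. The settings with no filter and with a filter of 5 FPKM cannot change a member's own ratio. Their ratios are in that count and were the same by construction. Small log2 ratios moved by much of their own size: over the alternatives with GSK126, EZH1 lay between 0.19 and 0.50, SUZ12 between -0.24 and -0.03 and RBBP7 between -0.29 and -0.07, and with astemizole EZH1 lay between 0.21 and 0.53. The 2 that crossed 2-fold were RBBP7 with astemizole, at -0.91 with scramble shRNA as the control, and EZH1 with knockdown, at 1.08 with a pseudocount of 0.1 FPKM. RBBP4 with GSK126 was the 1 ratio to change sign, at 0.04 after TPM rescaling. The EZH2 to EZH1 and RBBP7 to RBBP4 ratios moved by less than 1.5 times with 1 FPKM added to both genes. Counts over all genes moved more. With a pseudocount of 0.1 FPKM, 370 genes were higher and 236 lower with GSK126, 750 higher with astemizole, and 486 higher and 1003 lower with knockdown. For GSK126, TPM rescaling gave 285 higher and 70 lower, a filter of 5 FPKM 83 higher, and scramble shRNA as the control 51 lower. With that control 54.0% of genes past 2-fold were higher with astemizole, against 39.1%. The nearest genes depend on the measure. With a pseudocount of 0.1 FPKM 1 of the 3 nearest genes of EZH2 was shared; with the 3 ratios in place of 5 columns, 0 were shared for EZH2, EZH1 and SUZ12, and 1 for EED, RBBP4 and RBBP7. The cause was not tested. No paired analysis was possible because each condition has 1 column, and leaving out a hairpin was not possible for the same reason. Read totals are unknown, so counting error has no interval. Depth limits the lowest values most, which were EZH2 in the knockdown column, at 3.35 FPKM, and EZH1 in each other column.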

Other observations

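The H3K27 demethylases, which remove the mark that PRC2 places, were read in the same columns. KDM6B was at 13.2 FPKM with GSK126 and 12.9 FPKM with astemizole, against 8.60 FPKM with vehicle. In the knockdown column KDM6B was at 25.7 FPKM, against 7.40 FPKM with scramble shRNA, a log2 ratio of 1.67 that 0.309% of genes reached, and the controls differed by -0.19. KDM6A had log2 ratios of 0.03, 0.26 and 0.29 with GSK126, astemizole and knockdown, and 0.31 between the 2 controls.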
